A study of Danio rerio with 20 samples.

Results

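The comparison set whole zebrafish embryos exposed to dimethyl sulfoxide (DMSO) at 0.025 ml/L against unexposed control embryos. Its members were chosen by their labels alone: 4 RNA pools of DMSO embryos and 4 RNA pools of control embryos, 8 of the 20 pools in the series. Every pool held the surviving embryos of 1 plate, which had been loaded with 20 test embryos of a laboratory breeding stock, held from early cleavage and frozen at 48 h. The other 12 pools had received DMSO at 0.1 ml/L, or dimethylformamide (DMF) at 0.025 or 0.1 ml/L. Every array carried 2 pools, labelled with Cy3 and Cy5, and each pair of pools was hybridised again with the dyes exchanged.

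DMSO is an organic solvent that brings poorly soluble chemicals into test water, and a solvent control is the usual yardstick in fish embryo toxicity tests. Embryos of this age have finished gastrulation and segmentation, have a beating heart and are close to hatching. Homeobox genes of the hox and dlx families pattern the body axis, the forebrain and the jaw at these stages. Retinoic acid receptors and insulin-like growth factor receptors relay signals that shape the hindbrain and drive growth.

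No transcript passed the test between DMSO 0.025 ml/L and control embryos. Of 3652 tested probes, 0 rose and 0 fell at a Benjamini-Hochberg adjusted p under 0.05 in limma (0%), and the smallest adjusted p was 0.667. The 14 tested genes that could be given a symbol included developmental regulators of the hox and dlx families, egr1, rarga and igf1rb, and their estimates lay between -0.67 (dlx5a) and 0.41 (egr1) on the log2 scale. At an unadjusted p under 0.05 there were 162 probes (4.44%), of which 35 were higher (0.958%) and 127 lower (3.48%) in DMSO embryos. In these bulk pools, fewer cells of a type and less RNA per cell cannot be told apart.

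The fitted changes lay close to 0 for most probes. Their median was -0.02, 5% lay below -0.44 and 5% above 0.32, and the extremes were -1.73 and 1.13. An estimate above 1 was given for 2 probes and an estimate below -1 for 4. The median standard error was 0.212. The 95% interval lay wholly within 1 log2 unit of 0 for 3413 probes (93.5%) and within 0.5 for 688 (18.8%). The share within 1 was 55.4% with the replicate number as a block, and 36.4% of 16407 probes with low-confidence spots kept. With separate channels it was 52.2%, and 81.6% with the pools' medians aligned, an alignment chosen after seeing the data. With the median empty spot subtracted in each channel it was 76.6% of 2992 probes. The remaining 239 probes had intervals that reached beyond 1, so a change of that size was neither shown nor bounded for them.

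**Figure D1:**
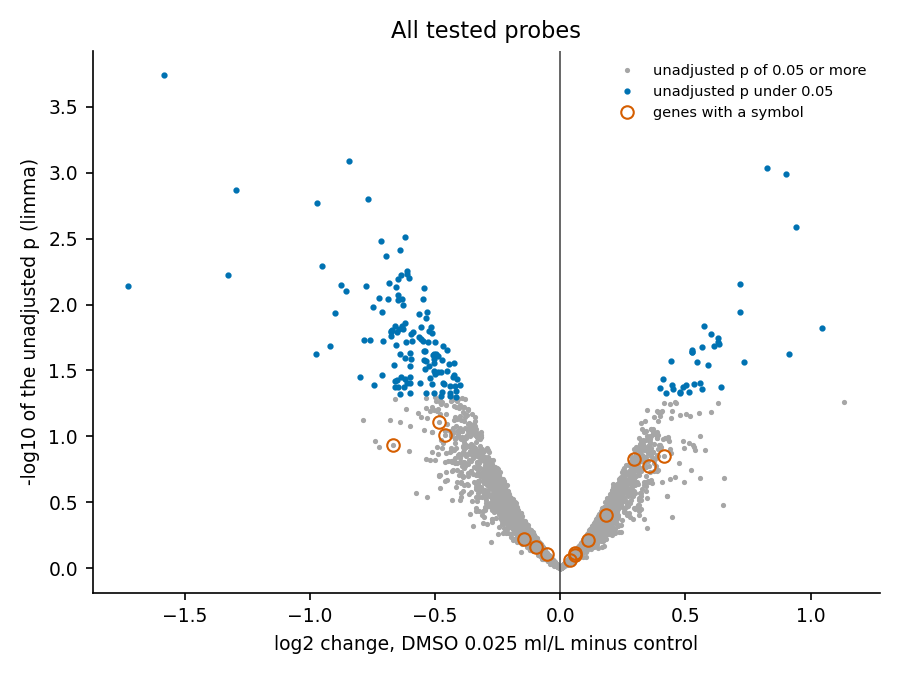
Each point is 1 of the 3652 tested probes, with the fitted log2 change (DMSO 0.025 ml/L minus control) on the horizontal axis and -log10 of the unadjusted limma p on the vertical axis. Blue points have an unadjusted p under 0.05 (35 higher, 127 lower), and open orange circles are the 14 genes with a symbol, none of which is among them.

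A pair without a pool of this comparison (DMSO 0.1 ml/L replicate 1, DMF 0.025 ml/L replicate 2) was left out, because 1 of its files names another array's scan. That other array holds control replicate 3 and stayed in the model. Signal was low for several of the remaining pools. In DMSO replicates 2, 3 and 4 the median probe amplitude was 1.38 to 1.53 times the median empty spot in Cy3, and 1.12 to 1.32 times in Cy5. Control replicate 1 gave ratios of 1.57 and 1.24. DMSO replicate 1 gave 12.6 in Cy3 and 2.05 in Cy5, and control replicates 2, 3 and 4 gave 2.66 to 8.87 over both dyes. So 3 of 4 DMSO pools but 1 of 4 control pools lay close to empty spots, each opposite a brighter pool, on both arrays of its pair. The pools hybridised with control replicates 2 and 4 were dim as well. DMF 0.025 ml/L replicate 1 gave 1.66 in Cy3 and 1.88 in Cy5, and DMSO 0.1 ml/L replicate 3 gave 1.4 and 1.21. The sources used here do not state whether the amplitudes are corrected for background. Ratios of pools near empty spots would be compressed if they are not, and the estimates and intervals hold for the amplitudes as deposited. With the median empty spot of each channel subtracted, 0 probes were called. The share of intervals within 1 log2 unit of 0 was then 76.6% (2293 of 2992), against 93.5% without subtraction. The part of low signal in the results below was not tested. Between 35.5% and 67.1% of the probe spots on the 14 arrays that held a DMSO 0.025 ml/L or control pool had a confidence grade above the lowest.

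**Figure D2:**
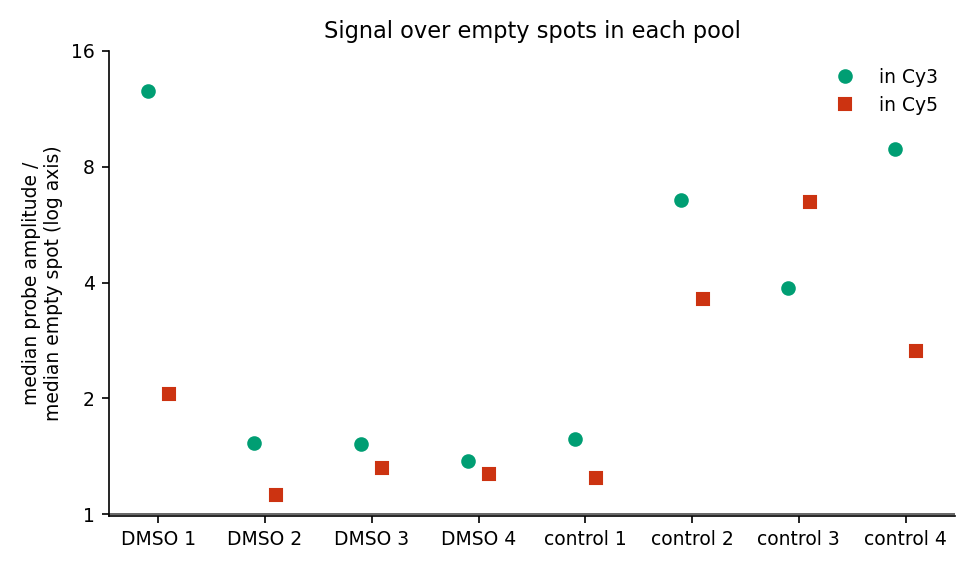
The median amplitude of probe spots divided by that of empty spots (vertical log axis) is drawn for the 4 DMSO 0.025 ml/L pools and the 4 control pools, each in Cy3 (circles) and Cy5 (squares). DMSO pools 2, 3 and 4 and control pool 1 lie between 1.12 and 1.57 in both dyes.

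The arrays link DMSO and control embryos by 4 routes that share no pool. DMSO replicate 1 and control replicate 1 met directly on 1 pair of arrays. DMSO replicate 2 reached control replicate 4 through 2 pools of DMSO 0.1 ml/L, DMSO replicate 3 reached control replicate 2 through 2 pools of DMF 0.025 ml/L, and DMSO replicate 4 reached control replicate 3 through 2 pools of DMF 0.1 ml/L. For a probe measured in all 9 pairs of the model, the fitted change is 0.4 times the direct ratio plus 0.2 times each of the other routes. The indirect routes add the spread between pools of the linking condition.

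The 4 routes gave different pictures across probes. Over 2789 probes measured on all of them, the correlation between routes ran from -0.233 to 0.228. These are descriptions across probes that share arrays and dyes within a route. The routes' values had an SD of 0.398 for the direct pair, 0.672 through DMSO 0.1 ml/L, 0.496 through DMF 0.025 ml/L and 0.459 through DMF 0.1 ml/L. All 4 routes were above 0 for 95 probes (3.41%) and below 0 for 195 (6.99%). The direct pair had a median of 0.0999, against -0.134, -0.18 and -0.0126 for the other routes in the order above. The direct pair set a brighter DMSO pool over a control pool close to empty spots. Through DMSO 0.1 and DMF 0.025 ml/L, both links set a pool close to empty spots over a brighter one. The part of this in the medians was not tested.

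The direct pair shows how far its 2 arrays differed. Over the 3596 tested probes measured on both, the log2 ratio of DMSO replicate 1 over control replicate 1 had the same sign on both arrays for 1656 (46.1%) and opposite signs for 1940. The correlation of the arrays was -0.118, and 0.386 after the mean dye offset of each probe over the pairs was taken off. For the pair that held DMSO replicate 3 these values were -0.322 and -0.0489. With the offset taken off, all other pairs lay between 0.245 and 0.692. The arrays behind the DMSO replicate 3 levels, and behind the route that starts there, thus shared no positive correlation across probes. The direct ratio was above 1 on both of its arrays for 5 probes (0.139%) and below -1 on both for 8 (0.222%). On the other routes the 5 high probes had medians of -0.924, -0.0475 and -0.143, and the 8 low probes had 0.241, -0.903 and -0.0145. Neither group kept its direction on all routes.

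**Figure D3:**
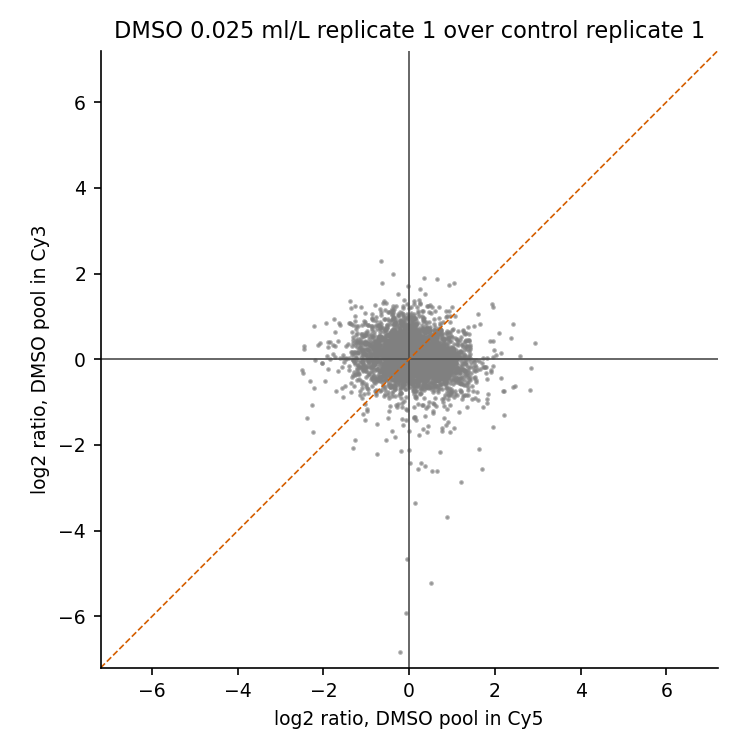
Each point is 1 of 3596 probes, with the log2 ratio of DMSO 0.025 ml/L replicate 1 over control replicate 1 on the array with DMSO in Cy5 (horizontal) and in Cy3 (vertical); the dashed line marks equal ratios. The cloud does not follow the line, and 1940 points lie in the quadrants of opposite sign.

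Among the hox genes, which give cells their position along the body axis, 3 were tested and 0 were called. The estimate with the smallest p of any named gene was that of hoxb5a (NM_131101), a gene of the posterior hindbrain and anterior trunk. Its log2 level was 9.23, 8.91 and 8.85 in DMSO replicates 1, 2 and 4, against 9.34, 9.55, 9.69 and 9.56 in control replicates 1 to 4. Every measured DMSO pool lay below every control pool, while replicate 3 was not measured on both arrays. Of 3188 probes measured in the same 7 pools, 61 had that pattern (1.91%), and 201 (6.3%) without alignment of the pools' medians. The lowest DMSO pools were those close to empty spots, and the lowest control pool was the one close to empty spots too. The routes gave -0.05 directly, -0.81 through DMSO 0.1 ml/L and -0.57 through DMF 0.1 ml/L. The fitted change was -0.48 ± 0.25 (SE, limma adjusted p = 0.996), with a 95% interval from -1.03 to 0.06. It was -0.87 without the direct pair and -0.19 with the replicate number as a block.

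The other hox genes stayed nearer 0. For hoxa13b (NM_131194), which acts in the tail and fin buds, levels were 12.01, 11.74, 11.48 and 11.74 in DMSO pools, against 11.74, 11.48, 11.62 and 11.72 in control pools. The groups overlapped, and DMSO replicate 1 was the highest pool. Its routes gave 0.32, -0.28, 0.87 and 0.54, and the fit 0.36 ± 0.24 (adjusted p = 0.996). It ran from 0.19 to 0.55 without each of the 7 pairs with a DMSO 0.025 ml/L or control pool, and was 0.08 with the block and 0.10 with separate channels on aligned medians. For hoxb1b (NM_131142), which helps to specify hindbrain segments, levels were 9.63, 9.66 and 9.62 in 3 DMSO pools, against 9.24, 9.81, 10.57 and 10.07 in control pools. The DMSO pools were tightly placed inside the control range, and the estimate was 0.04 ± 0.24, or -0.33 to 0.20 without each of the 7 pairs.

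The dlx genes, which act in the forebrain and in the jaw-forming arches, also had 3 tested members and 0 calls. Among them dlx5a (NM_131306), a gene of jaw and limb skeleton development, had the most negative estimate of the 14 named genes and the largest standard error. Its level was 8.47, 6.67 and 8.34 in DMSO replicates 1, 2 and 3, against 7.93, 8.94, 8.66 and 9.21 in control pools. DMSO replicate 2 stood far below the rest, while the other DMSO pools lay inside the control range. The direct pair gave 0.60, and the routes through DMSO 0.1 and DMF 0.025 ml/L gave -2.0 and -1.90. The ratio depended on the dye: DMSO replicate 2 over DMSO 0.1 ml/L replicate 2 was -3.50 with DMSO replicate 2 in Cy3 and -1.12 with it in Cy5. For DMSO replicate 3 over DMF 0.025 ml/L replicate 4 the ratios were -3.66 with DMSO replicate 3 in Cy3 and 0.47 with it in Cy5. The fit gave -0.67 ± 0.40 (adjusted p = 0.996). Without the direct pair it was -1.78, and with the replicate number as a block it was 0.60. That last value equals the direct ratio, so for this gene the block fit drew on the direct pair alone.

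For dlx2a (NM_131311) levels were 9.60, 9.99, 9.71 and 9.34 in DMSO pools, against 8.95, 9.41, 9.71 and 9.65 in control pools. The groups overlapped, and the lowest pool was control replicate 1. Its estimate was 0.30 ± 0.19 (adjusted p = 0.996), and only the direct route, at 0.70, exceeded 0.25. Without the direct pair the estimate was 0.03, and with the block 0.59. For dlx1a (NM_131305) all 8 pools lay between 9.72 and 10.00, the closest grouping among the named genes, and the estimate was -0.05 ± 0.19, or -0.15 to 0.01 without each of the 7 pairs.

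**Figure D4:**
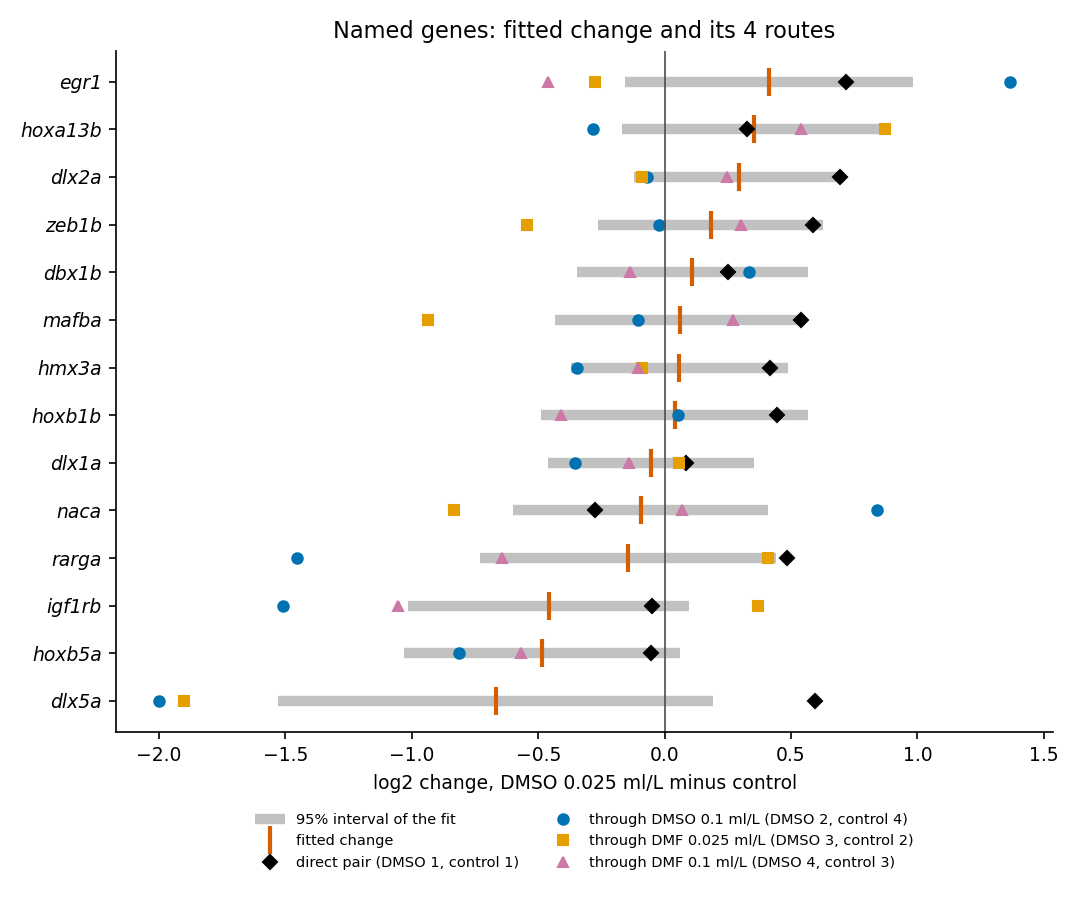
For the 14 tested genes with a symbol, the fitted log2 change (orange bar) and its 95% interval (grey) are drawn with the values of the 4 routes, DMSO 0.025 ml/L minus control on the horizontal axis. All 14 intervals include 0, and for most genes the routes lie on both sides of 0.

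Among the regulators of hindbrain, spinal cord and ear, 3 of 10 listed genes were tested and 0 were called. The gene dbx1b (NM_131178), which marks interneuron progenitors, had an estimate of 0.11 ± 0.21, with routes of 0.25, 0.34 and -0.14. For hmx3a (NM_131634), a homeobox gene of the inner ear and lateral line, the direct pair gave 0.42 and the other routes -0.35, -0.09 and -0.11, for an estimate of 0.06 ± 0.20. The hindbrain gene mafba (NM_131015) had 0.54 directly and -0.94 through DMF 0.025 ml/L, for an estimate of 0.06 ± 0.23. Without the direct pair the estimates of these genes were -0.02, -0.18 and -0.26 in the same order. In each of them a positive mean direct ratio was offset by at least 1 negative route. With DMSO in Cy5 and in Cy3 the direct ratio was 0.74 and -0.24 for dbx1b and 0.93 and -0.10 for hmx3a. For mafba it was 0.76 and 0.32.

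For egr1 (NM_131248), an immediate early zinc finger factor that responds to growth signals and neuronal activity, 1 pool stood apart. Its level was 10.93, 12.87, 10.88 and 10.79 in DMSO pools, against 10.27, 11.26, 11.36 and 11.08 in control pools. DMSO replicate 2 stood above all other pools, and the other 3 DMSO pools lay within the control range. On the arrays of that pool against DMSO 0.1 ml/L replicate 2, the egr1 ratio was -0.31 with DMSO replicate 2 in Cy3 and 2.27 with it in Cy5. The routes were 0.72 and 1.37 for replicates 1 and 2, and -0.28 and -0.46 for replicates 3 and 4. The fit gave 0.41 ± 0.26 (adjusted p = 0.996), 0.29 without the pair of DMSO replicate 2, 0.18 to 0.63 without each of the 7 pairs, and 0.83 with the block. For zeb1b (NM_131709), a zinc finger repressor, DMSO pools lay between 9.76 and 9.94 and control pools between 9.39 and 10.34, with an estimate of 0.18 ± 0.21. It was -0.09 without the direct pair and 0.48 with the block.

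For igf1rb (NM_152969), a receptor for insulin-like growth factors, levels were 10.20, 10.54, 10.12 and 10.19 in DMSO pools, against 10.31, 10.47, 12.42 and 10.74 in control pools. Control replicate 3 stood well above all other pools, and the groups overlapped through DMSO replicate 2. The arrays of control replicate 3 were scanned in another batch than those of the other pools compared here. On them the ratio of DMF 0.1 ml/L replicate 1 over control replicate 3 was -0.37, so both pools had a high level there. The part of the batch in that level was not tested. The routes gave -0.05, -1.51, 0.37 and -1.05, and the fit gave -0.46 ± 0.26 (adjusted p = 0.996). The estimate was -0.34 without the pair that held control replicate 3, -0.73 to -0.24 without each of the 7 pairs, and -0.25 with the block. For rarga (NM_131339), a retinoic acid receptor, levels were 11.55, 10.58, 11.17 and 10.75 in DMSO pools, against 11.11, 10.78, 11.37 and 11.06 in control pools. The DMSO pools were spread on both sides of the controls, and the estimate was -0.14 ± 0.27, with routes from -1.45 to 0.48. It was -0.56 without the direct pair, 0.13 without the pair of DMSO replicate 2 and 0.15 with the block.

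For naca (NM_173264), which binds nascent peptides at the ribosome, pools ran from 13.18 to 14.29 under DMSO and from 12.96 to 14.41 in controls, and the estimate was -0.10 ± 0.23, or -0.32 to 0.06 without each of the 7 pairs. Over all 14 named genes, 8 estimates were above 0 and 6 below, with a median of 0.05, against -0.02 over all tested probes. The 95% intervals of 11 lay within 1 log2 unit of 0.

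**Figure D5:**
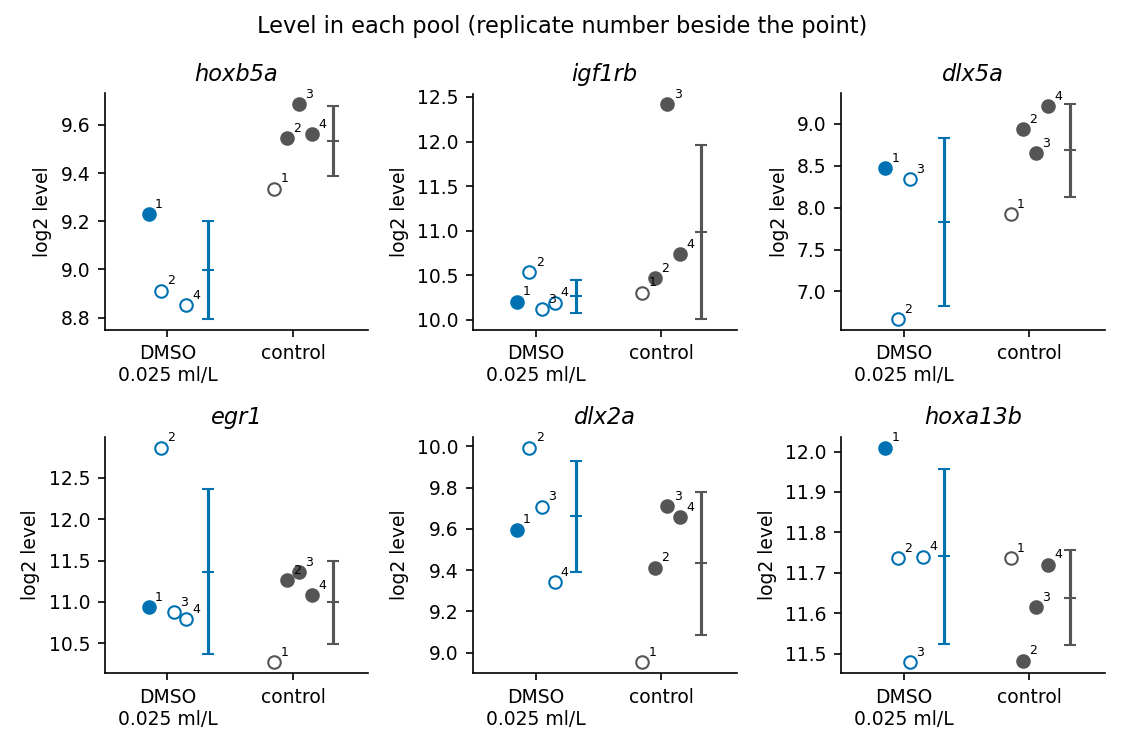
The log2 level of 6 genes is drawn for each of the DMSO 0.025 ml/L pools (blue, left) and control pools (grey, right), with open points for pools close to empty spots and bars for the mean ± SD of the pools measured. The groups overlap for 5 of the genes and are separate for hoxb5a, where 3 DMSO pools were measured.

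The levels quoted are those after loess within arrays, Aquantile scaling between arrays and alignment of the pools' medians. Over the 2789 probes with a level in all 8 pools, all DMSO pools lay above all control pools for 42 (1.51%) and below them for 23 (0.825%). Without alignment of the medians these counts were 1 and 136, and the median difference, DMSO minus control, was -0.317 instead of -0.01. The median SD between pools was 0.308 in DMSO and 0.298 in control embryos. Levels were then centred on each probe's mean over the 8 pools, which by itself pulls correlations between pools below 0. Centred levels of DMSO replicate 1 and control replicate 1, which shared arrays, correlated at 0.335. Among DMSO pools the correlations ran from -0.407 to -0.0339, and among control pools from -0.34 to 0.0649. Their negative signs alone therefore do not show that pools of a group differ.

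A further 6 genes with a symbol had a ratio in the direct pair but too few pairs for a test. The largest in size was phc2a (NM_152958), a Polycomb group gene, at -1.07 directly, against 0.92 on the route through DMSO 0.1 ml/L. The homeobox gene tlx2 (NM_153651) had 2.14 with DMSO in Cy5 and -0.76 with DMSO in Cy3, a mean of 0.69, and 0.26 through DMF 0.1 ml/L. For sox21a (NM_131286), a neural transcription factor gene, the ratios were 1.16 in Cy5 and -0.94 in Cy3, a mean of 0.11. The arrays thus gave opposite signs for both genes. The kinase gene csnk1a1 (NM_152951) had a mean of -0.39 and the receptor gene igf1ra (NM_152968) -0.07. For rbp4 (NM_130920), which carries retinol, the direct mean was 0.06, against -1.20 through DMSO 0.1 ml/L and 0.62 through DMF 0.1 ml/L. Of 47 probe spots with a symbol, 14 were tested and 33 were not.

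Among probes whose record has no symbol, 4 are described as those of smallest p in each direction. They were picked by p from the same routes, so a shared sign of their routes follows in part from the pick. AW115596 had an estimate of 0.82 ± 0.20 (limma, adjusted p = 0.884). All 4 of its routes were above 0, at 0.90, 0.91, 1.22 and 0.18. The largest rested on 1 array: DMSO replicate 3 over DMF 0.025 ml/L replicate 4 was -0.05 with DMSO in Cy3 and 2.64 with DMSO in Cy5. Its levels were 9.12, 9.35, 10.61 and 9.18 in DMSO pools, against 8.27, 9.22, 9.40 and 9.39 in control pools. DMSO replicate 3 was the highest pool and control replicate 1 the lowest, and the other pools overlapped. AW281840 had an estimate of 0.90 ± 0.21 (adjusted p = 0.884), with routes of 0.82, 1.18 and 0.54, and its direct ratio was -0.66 with DMSO in Cy5 and 2.30 with DMSO in Cy3.

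The probe of smallest p was BI846175, at -1.58 ± 0.30 (adjusted p = 0.667). Its routes were -2.35 directly, -1.39 through DMSO 0.1 ml/L and -0.65 through DMF 0.1 ml/L. Levels were 8.77, 9.28, 9.41 and 8.22 in DMSO pools, against 11.17, 9.18 and 10.18 in control replicates 1, 3 and 4. The groups overlapped through control replicate 3. The direct ratio was -0.05 with DMSO in Cy5 and -4.65 with DMSO in Cy3, so 1 array carried it. Without the direct pair the estimate was -0.89. BM155853 had an estimate of -0.84 ± 0.20 (adjusted p = 0.884), with all routes below 0, at -1.21, -1.02, -0.32 and -0.48. Its levels were 13.68, 13.52, 13.85 and 13.30 in DMSO pools, against 14.94, 13.63, 14.22 and 14.02 in control pools. Control replicate 2 was the lowest control pool and lay among the DMSO pools.

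The probes with an unadjusted p under 0.05 were mostly lower in DMSO embryos, and that share depended on the processing. The 127 lower probes had a median estimate of -0.60 and the 35 higher ones 0.57, which follows from how they were picked. Among the 913 dimmest probes there were 15 higher and 43 lower, and among the 913 brightest there were 3 higher and 29 lower. Lower probes made up 78.4% of these probes, 46.8% (33 higher, 29 lower) with separate channels aligned on their medians, and 98.6% (3 higher, 213 lower) without alignment. Without the direct pair there were 284 probes, 49 higher and 235 lower. Within the second scan batch alone, which held all DMSO pools and control replicates 1, 2 and 4, 5 of 3825 probes fell at an adjusted p under 0.05 (0.131%) and 0 rose, with 103 at an unadjusted p under 0.05. BI846175 was among them, at -2.03 (limma, adjusted p = 0.00215). Over both scan batches the count was 0, but AW567243, another of the 5 at -2.28, was not among the probes tested there. The fit of the second batch had 2 residual degrees of freedom for a probe measured in all its pairs. BI846175 had fewer, because the pair of DMF 0.025 ml/L replicate 1 and control replicate 2 gave it no ratio. Its estimate there rested on the direct pair and the route through DMSO 0.1 ml/L alone. In that batch DMSO replicate 4 had no link to control, so it did not enter the estimates.

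The other exposures share the control pools with this comparison. Values of each exposure against control are given side by side, without a test between exposures. BM155941, which was 3.13 higher in DMSO 0.1 ml/L embryos, was at -0.48 ± 0.35 in DMSO 0.025 ml/L embryos (limma, adjusted p = 0.996). Its routes differed in sign, at -0.360, -1.827, -1.052 and 1.202. Its levels were 10.42, 10.50, 10.17 and 10.12 in DMSO 0.025 ml/L pools, against 10.83, 11.15, 11.08 and 11.61 in control pools. All 4 DMSO 0.025 ml/L pools thus lay below all 4 control pools, a pattern of 23 of 2789 probes (0.825%). AF180890 was 3.68 ± 0.49 higher at DMSO 0.1 ml/L (limma, adjusted p = 0.00872). At DMSO 0.025 ml/L the estimate was -0.16 ± 0.49, with routes of -0.08, -1.53 and 1.87. For dlx5a the estimates were -0.67 at DMSO 0.025 ml/L and 0.90 ± 0.40 at DMSO 0.1 ml/L (limma, adjusted p = 0.379). The ratio in the shared pair, DMSO 0.025 over 0.1 ml/L, was -2.31. For hmx3a the estimates were 0.06 and 0.48 ± 0.22 (limma, adjusted p = 0.382), and the ratio in the shared pair was -0.72.

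Beta-actin and the tested spots for the mitochondrial genome were not called either. The repeated beta-actin probe (AF025305), averaged over 172 spots, was at -0.21 ± 0.25, with routes of 0.22, -1.13, -0.30 and -0.07. Of 13 spots for the mitochondrial genome, which codes for respiratory chain subunits, 10 were tested, and their estimates ran from -0.24 to 0.22 with a median of -0.15. In the direct pair 9 of the 10 were below 0, against 39.1% of all probes. Through DMSO 0.1 ml/L 4 of them were below 0, through DMF 0.025 ml/L 4 and through DMF 0.1 ml/L 5, against 57.9%, 66.1% and 51% of all probes. These spots share 1 genome record and are no replicates of each other.

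The gene lists were thinly covered. Beside 3 hox (median 0.04), 3 dlx (median -0.05) and 3 hindbrain and ear genes (median 0.06), the immediate early and zinc finger list had 2 tested members (median 0.30), and the retinoid, growth factor and protein folding lists had 1 each. The lists for xenobiotic metabolism, oxidative stress, osmotic balance, hatching gland, muscle, blood, lens, housekeeping and the mitochondrial genome by symbol had 0 tested members and were not analysed here. The labelled tissue, whole embryo, could therefore not be checked against muscle, blood or lens markers.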

How the data were processed

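Intensities in the deposited scanner files are amplitudes, estimated for either channel of each spot by BlueFuse per the file headers (version 3.3 on 2 arrays, 3.6 on 18), beside a confidence grade and without a background column. The authors' deposited value table gives a log2 ratio per spot. Each of its columns ran in the direction of Cy5 over Cy3 of its own array (Spearman 0.379 to 0.839). Column medians lay between -0.044 and 0.065; its normalization and exact scale are not given in the sources used here, and it served as an alternative.

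These amplitudes were turned into log2 ratios without a background step, using limma 3.58.1 under R 4.3.3, and statmod 1.5.0 for random blocks. Spots of the lowest confidence grade (below 0.1) and 750 of 17328 spots that were controls were left out. Loess (span 0.3, 4 iterations) was run within each array, and the dye-swapped arrays of a pair were averaged. The 172 beta-actin spots were averaged, which gave 16407 probes, and 3652 (22.3%) had a ratio in at least 8 of 9 pairs. The number of arrays limits the precision.

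Groups came from the labels. The 4 coefficients of the model set every exposed group against control, with 5 residual and 8.67 prior degrees of freedom. A fit with the replicate number as a block adds coefficients for these numbers and leaves fewer residual degrees of freedom. In the pair left out, array 1 has a file that names array 17's scan, and before normalization their log ratios had a correlation of 0.881. A p-value sets a change against the spread between pair ratios of 1 experiment. That spread holds differences of arrays and labelling as well as differences between plates.

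Genes were named where a RefSeq accession matched the RefSeq gene table (47 probe spots). Named were all tested genes with a symbol, genes with a symbol measured only in the direct pair, the 2 records of smallest p in each direction, and probes described earlier for other exposures. The members, lists and tests were chosen with earlier results of these data known. Steps after the averaging of pairs were tested on simulated data. Alternatives covered the confidence grades, background, normalization, unit of the fit, pairs in the model, pairs needed, variance shrinkage, replicate block and the authors' table.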

Additional observations from a re-analysis of the deposited data

Results flagged for a closer look

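The 49 groups checked each held the levels of 4 pools or the values of 4 routes. In 4 of these groups 1 value stood apart by Dixon's criterion at the 95% level, which chance alone meets in about 1 of 20 groups. All 4 were groups of pool levels, so their share among groups of pools alone is larger. The egr1 log2 level was 12.87 in DMSO 0.025 ml/L replicate 2, against 10.79 to 10.93 in the other DMSO pools. The record AW115596 was at 10.61 in DMSO 0.025 ml/L replicate 3, against 9.12 to 9.36 in the other DMSO pools, and at 8.27 in control replicate 1, against 9.22 to 9.40 in the other control pools. That record was picked by its small p from the same pools, so its groups cannot be set against the chance rate. The mafba log2 level was 9.32 in control replicate 1, against 9.90 to 9.95 in the other control pools. All 3 pools concerned lay close to empty spots, and the part of that was not tested.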

How the results depend on the processing

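The count of calls was 0 in every alternative run except the second scan batch alone, which gave 5. Leaving out each of the 7 pairs with a DMSO 0.025 ml/L or control pool in turn gave 0 calls each time (0 to 0), with 135 to 284 probes at an unadjusted p under 0.05. The number of probes whose 95% interval lay within 1 log2 unit of 0 was 3413 of 3652 (93.5%). Without each of these 7 pairs 3654 to 4136 probes were tested, and the share within 1 was 75.1% to 91.9% (2849 to 3603 probes). The number was 5965 of 16407 with low-confidence spots kept and 1431 of 1474 with the 2 lowest grades out. With separate channels it was 1906 of 3652, or 2979 of 3652 on aligned medians. With the median empty spot subtracted it was 2293 of 2992. With the replicate number as a block it was 2022, with 0 calls, 124 probes at an unadjusted p under 0.05 (53 higher, 71 lower) and a smallest adjusted p of 0.0543. Same-numbered DMSO and control pools correlated at 0.225, 0.0209, 0.0948 and 0.0757, and the pools of replicate 1 shared arrays. DMSO replicates 1, 3 and 4 correlated best with the control pool of their own number. DMSO replicate 2 correlated best with control replicate 3 (0.103). Not every sample correlated best with its own number, and the numbers were not taken to pair the pools. Correlations this small cannot decide that question, so the fit with the block is given beside the reported one. At an unadjusted p under 0.05 there were 931 probes with low-confidence spots kept, 62 with the 2 lowest grades out, 62 with separate channels aligned on pool medians, 686 in the authors' table and 90 there over the same probes. The alignment of pool medians and the same-probe form of the authors' table were chosen after seeing the data. The share of these probes that was lower was 59.5% with low-confidence spots kept, 57.3% with the block, 57.4% in the authors' table and 88.9% there over the same probes, against 78.4%. Of 319 gene-by-alternative estimates for the named genes, 0 were called, and 72 equalled the reported value within 0.0001, as where only the variance or the pairs needed changed. Of the 233 that differed, with the authors' table counted once, 204 kept their sign and 29 took the other sign; the cause was not tested. Separate channels without alignment, left out of that count, shift all probes together and turned 7 of 14 signs. Signal close to that of empty spots in 4 of the 8 pools, and in linking pools, limits what can be measured.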
